A study of Mus musculus with 2 samples.

Results

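The inhibitor of apoptosis relatives described here are Xiap, Birc2, Birc3 and Birc6, together with Diablo and Htra2, the mitochondrial proteins that oppose them. They are 6 named genes out of 32286 features counted, and all 6 were present in the matrices of both libraries. Single-cell RNA-seq was measured in mouse skin epidermis, in 1 library per genotype. The Survivin GOF library came from mice with 4 alleles, Involucrin-CREER, Rosa-SmoM2, Krt14rtTA and Survivin GOF, and its sorted cells expressed SmoM2-YFP and Survivin-mCherry. Control mice carried Involucrin-CREER/Rosa-SmoM2 alone, and their sorted cells expressed SmoM2-YFP. Both genotypes thus carried SmoM2, an active form of the hedgehog transducer Smoothened, switched on by a Cre under the involucrin promoter, and Krt14rtTA drives the gain-of-function allele from the keratin 14 promoter. Sorted cells had high integrin α6 and YFP and lacked CD34. The series addresses the part of Survivin, the product of Birc5, in the start of basal cell carcinoma. Age, treatment schedule, and the number and sex of the mice are not given in the sources used here.

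Inhibitor of apoptosis proteins share the BIR fold, and several of them are also ubiquitin ligases. Xiap binds and blocks the caspases that execute apoptosis. Birc2 and Birc3 encode the cellular inhibitors cIAP1 and cIAP2, which act at tumour necrosis factor receptor complexes, attach ubiquitin to Ripk1 and hold non-canonical NF-kB signalling low by promoting loss of the kinase Map3k14. Birc6 encodes a very large ubiquitin-conjugating enzyme, and Diablo (Smac) and Htra2 (Omi) leave the mitochondria during apoptosis and bind these proteins. In skin, cIAP proteins and Xiap are known for restraining keratinocyte death after tumour necrosis factor signalling.

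In the GENCODE vM21 annotation of mm10, Xiap (ENSMUSG00000025860) lies at chrX:42059679-42109656 on the plus strand. Birc2 (ENSMUSG00000057367) at chr9:7818227-7837064 and Birc3 (ENSMUSG00000032000) at chr9:7848699-7873186 are neighbours on the minus strand, 11634 bases apart. Birc6 (ENSMUSG00000024073) lies at chr17:74528295-74703356 on the plus strand, Diablo (ENSMUSG00000029433) at chr5:123509765-123524176 and Htra2 (ENSMUSG00000068329) at chr6:83051266-83055273, both on the minus strand. Diablo overlaps the same-strand gene model Gm49027, so its reads may have been split with that model. Birc6 overlaps Gm26749, Diablo overlaps B3gnt4, and Htra2 overlaps Loxl3 and Aup1, all on the opposite strand.

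Promoter windows of 250 bases upstream of the start were taken from RefSeq on GRCm38.p6, and 5 of the 6 genes had at least 1, not Htra2. The neighbours Birc2 and Birc3 are shown because their levels were distributed differently over the keratinocyte states described below. The 120 bases nearest the start are printed on the minus strand, with each CG dinucleotide in capitals. They span chr9:7837058-7837177 for Birc2 and chr9:7873171-7873290 for Birc3.
Birc2: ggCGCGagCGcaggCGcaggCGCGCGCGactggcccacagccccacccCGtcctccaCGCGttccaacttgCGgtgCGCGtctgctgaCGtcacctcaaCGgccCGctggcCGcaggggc
Birc3: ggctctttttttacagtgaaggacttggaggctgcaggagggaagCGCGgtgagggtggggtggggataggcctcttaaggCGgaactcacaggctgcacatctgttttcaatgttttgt
These stretches hold 18 CG dinucleotides for Birc2 and 3 for Birc3. Birc2 had a pair of windows. The printed one held 31 over its whole length, a number that 5.19% of 32851 promoter windows reach, and the other, at chr9:7836807-7837056, held 19, which 19.7% reach. The single Birc3 window had 6, the median of all windows. The richest windows of the other genes held 30 (Diablo), 18 (Birc6) and 13 (Xiap). The GLI motif GACCACCCA, searched on both strands, was in none of the windows of these genes and in 0.225% of all windows. These counts describe letters and say nothing of binding.

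The GOF library held 11438 barcodes with 126329382 UMIs, and the control library 24844 barcodes with 146216083 UMIs, beside 8046 cells that the labels give for the control genotype. Cells with at least 1500 genes and at most 10% mitochondrial UMIs numbered 6922 in the GOF and 10993 in the control library. The labels give 10000 cells loaded per channel, fewer than the kept control barcodes. Leaving out melanocyte-like, immune-like and fibroblast-like cells gave 6686 GOF keratinocytes with a median of 12603 UMIs and 10522 control keratinocytes with a median of 7657.5 UMIs. The libraries shared 84 barcodes, 22 of them among kept cells. Birc5 stood at 782 UMIs per 1000000 (CPM) in GOF and 56.1 CPM in control keratinocytes, which fits the labels. By Xist and Y-linked UMIs, 3762 GOF keratinocytes were female-called and 1864 male-called, against 29 female-called and 7680 male-called in the control library. Sex therefore moved with genotype, and values in male-called cells are given beside the results. Another 1060 GOF and 2813 control keratinocytes had no sex call. Krt14 stood at 12520 to 19780 CPM in the melanocyte-like and immune-like GOF cells and at 11170 to 15780 CPM in those of the control library, within the range over keratinocyte states, and the part of free RNA in the levels was not tested. With 1 library per genotype nothing can be tested across mice. Every interval below is an exact 95% interval that covers counting error only.

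States were assigned from marker UMIs, so high list markers in a state are built in and are no check of its name. Of the 7 keratinocyte states, 6 had a gene of their own list as the first by fold over other cells. The bulge-like state was led by Aspn, Wfdc3, 1700019D03Rik and Ccn2, with Col6a1 as the only list marker among its first 10 genes, although all 6 markers of its list were at least 2-fold up. Hedgehog-high basaloid-like cells numbered 818 in GOF and 1386 in control, and the leading genes included Lef1 and Lgr5. Basal interfollicular-like cells numbered 1679 in GOF and 2157 in control, suprabasal-like cells 767 in GOF and 1656 in control, and tail scale-like cells 387 in GOF and 973 in control. Upper follicle-like cells numbered 459 in GOF and 748 in control, sebaceous-like cells 216 in GOF and 822 in control, and bulge-like cells 357 in GOF and 379 in control. Another 2003 GOF and 2401 control keratinocytes passed no list and entered only the pooled values. YFP RNA reached 31.4 CPM in GOF and 31.0 CPM in control hedgehog-high cells, and 1.15 to 6.01 CPM in the other 6 GOF states against 4.47 to 11.6 CPM in those of the control, although all cells had been sorted as YFP-positive.

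Over all keratinocytes the inhibitors and antagonists kept levels close to those of control cells while Birc5 was 13.9-fold higher (13.6 to 14.3). None of the 6 genes was past 1.5-fold in either direction. Among 14664 genes with at least 50 pooled UMIs, 6.51% were at least 1.5-fold higher in GOF keratinocytes and 5.5% at least 1.5-fold lower. The median log2 ratio of the 6 genes was -0.00136, against 0.0738 over all genes tested. In male-called cells 5.53% of 13710 genes were past 1.5-fold higher and 7.12% lower, again with none of the 6, and their median log2 ratio was -0.12 against 0.05 over all genes.

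Among the inhibitors, Xiap, the direct caspase blocker, had the largest ratio. It stood at 51.1 CPM (49.8 to 52.5) in GOF and 41.4 CPM (40.1 to 42.6) in control keratinocytes, a ratio of 1.24 (1.19 to 1.29). In male-called cells the levels were 46.8 CPM in GOF and 41.7 CPM in control, a ratio of 1.12 (1.06 to 1.2), so the excess was smaller but its interval stayed above 1. Birc6, which also ligates ubiquitin to caspases, stood at 117 CPM in GOF and 106 CPM in control keratinocytes, a ratio of 1.11 (1.08 to 1.14), and 1.09 (1.05 to 1.13) in male-called cells.

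Birc2 was level between the libraries, with 33.4 CPM in GOF and 32.5 CPM in control keratinocytes and a ratio of 1.03 (0.98 to 1.08). Its male-called cells went the other way, with 28.9 CPM in GOF and 32.0 CPM in control, a ratio of 0.90 (0.84 to 0.98). Birc3 stood at 7.26 CPM in GOF and 7.74 CPM in control keratinocytes, a ratio of 0.94 (0.85 to 1.04), and 0.86 (0.73 to 1.01) in male-called cells. For both genes, then, the pooled interval held 1, and for Birc2 it no longer did within male-called cells.

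The antagonists were at or slightly below control levels. Diablo stood at 34.0 CPM in GOF and 35.0 CPM in control keratinocytes, a ratio of 0.97 (0.93 to 1.02), and 0.92 (0.86 to 0.99) in male-called cells. Htra2, a serine protease, stood at 11.4 CPM in GOF and 12.4 CPM in control keratinocytes, a ratio of 0.92 (0.852 to 0.998). In male-called cells the Htra2 ratio was 0.92 (0.81 to 1.04), an interval that held 1. Thinning every cell to 3000 UMIs turned the direction of Htra2, to a ratio of 1.10, given without an interval. Summed UMIs of Xiap, Birc2 and Birc3 over those of Diablo and Htra2 gave 2.02 (1.95 to 2.09) in GOF and 1.72 (1.66 to 1.78) in control keratinocytes. In male-called cells this quotient was 1.90 (1.77 to 2.03) in GOF and 1.73 (1.66 to 1.795) in control, with intervals that overlapped narrowly. The difference between libraries in this quotient was not tested, and overlap alone does not show that it was absent. The quotient weights genes by their UMIs and was chosen after the values had been seen. It leaves out Birc6, which had 12697 UMIs in GOF and 10913 in control keratinocytes, and a quotient with Birc6 was not computed.

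**Figure D1:**
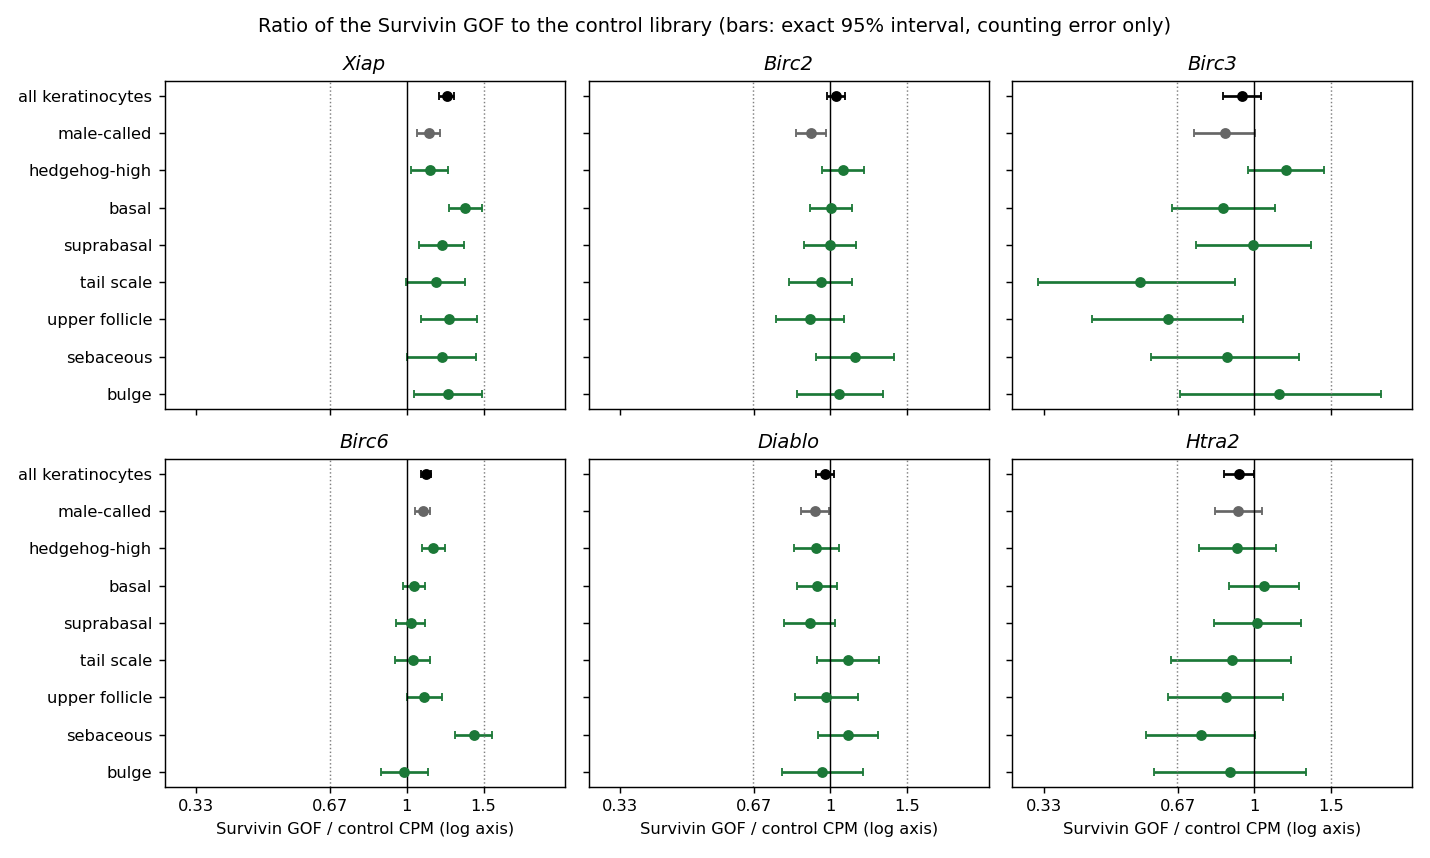
GOF over control ratio of CPM (log axis) for each gene in all keratinocytes (black), male-called keratinocytes (grey) and 7 states (green), with exact 95% intervals and dotted lines at 1.5-fold in either direction. All 7 Xiap states sit above 1, Birc6 stands out in the sebaceous state at 1.42, and Birc3 passes 1.5-fold lower in the tail scale and upper follicle states.

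Within states, Xiap had the steadiest direction of the 6 genes. Its ratio was above 1 in 7 of 7 states and its interval in 6, all but the tail scale state. It ran from 1.13 (1.02 to 1.24) in hedgehog-high cells, with 59.8 CPM in GOF and 53.0 CPM in control, to 1.36 (1.248 to 1.49) in basal cells, with 59.8 CPM in GOF and 43.9 CPM in control. The mean over states with equal weight was 1.22. Median-of-ratios scaling, which divides by the median gene ratio, kept 7 states above 1, with 1.07 in hedgehog-high and 1.28 in basal cells. State intervals at that scaling are not given, so the count of 6 holds for CPM alone. Keratinocytes without a state, 2003 in GOF and 2401 in control, had a Xiap ratio of 1.05 (0.97 to 1.145), an interval that held 1. The share of all genes with a ratio above 1 in every state was not computed. Among male-called cells the basal ratio was 1.34 (1.18 to 1.53), whereas the hedgehog-high ratio was 1.02 (0.88 to 1.18) and the sebaceous ratio 1.002 (0.76 to 1.30). Apart from the basal state, the male-called interval of every state held 1.

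Birc6 was higher in 6 of 7 states, with intervals above 1 in 3 of them. Median-of-ratios scaling left it higher in 5 states. The share of all genes higher in as many states was not computed, so these counts have no background. In sebaceous cells Birc6 stood at 109 CPM in GOF and 76.3 CPM in control, a ratio of 1.42 (1.29 to 1.57), and male-called sebaceous cells gave 1.43 (1.246 to 1.63). Hedgehog-high cells had 148 CPM in GOF and 129 CPM in control, a ratio of 1.15 (1.08 to 1.23). The sebaceous GOF cells were also the deepest, with a median of 25740.5 UMIs against 12440.5 in control, and their part in the result was not tested.

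Birc3 had the widest range of ratios over states, with 2 of 7 states above 1. In tail scale cells it stood at 3.19 CPM in GOF (22 UMIs) and 5.83 CPM in control (60 UMIs), a ratio of 0.55 (0.32 to 0.91), which became 0.31 at a marker score limit of 0.75. In upper follicle cells it stood at 4.98 CPM in GOF and 7.84 CPM in control, a ratio of 0.64 (0.43 to 0.94). It was no longer past 1.5-fold at a score limit of 0.25, with 0.70, or without the top 6% of cells by UMIs, with 0.68. In hedgehog-high cells it was 14.7 CPM in GOF and 12.4 CPM in control, a ratio of 1.18 (0.97 to 1.44), and among male-called cells 1.38 (1.03 to 1.82). The difference between states was not tested. Male-called upper follicle cells gave 0.53 (0.28 to 0.94) for Birc3, and only 2 UMIs were left in the 35 male-called tail scale GOF cells. Birc3 in these 2 states gave the only pairs past 1.5-fold lower among 42 pairs of a gene and a state, and none was past 1.5-fold higher. Over 77077 such pairs of all genes, 6.1% were past 1.5-fold higher and 7.2% lower, so 2 of 42 is near the background.

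Over cells of both sexes, Birc2, Diablo and Htra2 had no state whose interval left 1. Birc2 ratios ran from 0.90 in upper follicle cells to 1.14 in sebaceous cells, Diablo ratios from 0.90 in suprabasal to 1.10 in tail scale cells, and Htra2 ratios from 0.76 in sebaceous (0.566 to 1.002) to 1.05 in basal cells. Among male-called cells, Diablo in the hedgehog-high state stood at 32.1 CPM in GOF and 39.4 CPM in control, a ratio of 0.82 (0.67 to 0.98), an interval that left 1.

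The plot of levels by state shows how each gene was spread over the epidermis. Hedgehog-high cells had the highest level of Birc2, Birc3 and Birc6 in both libraries, and sebaceous cells the lowest Xiap and Birc2 in both. The interval of the first place overlapped that of the next state for Birc2 in both libraries and for Birc6 in the control.

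**Figure D2:**
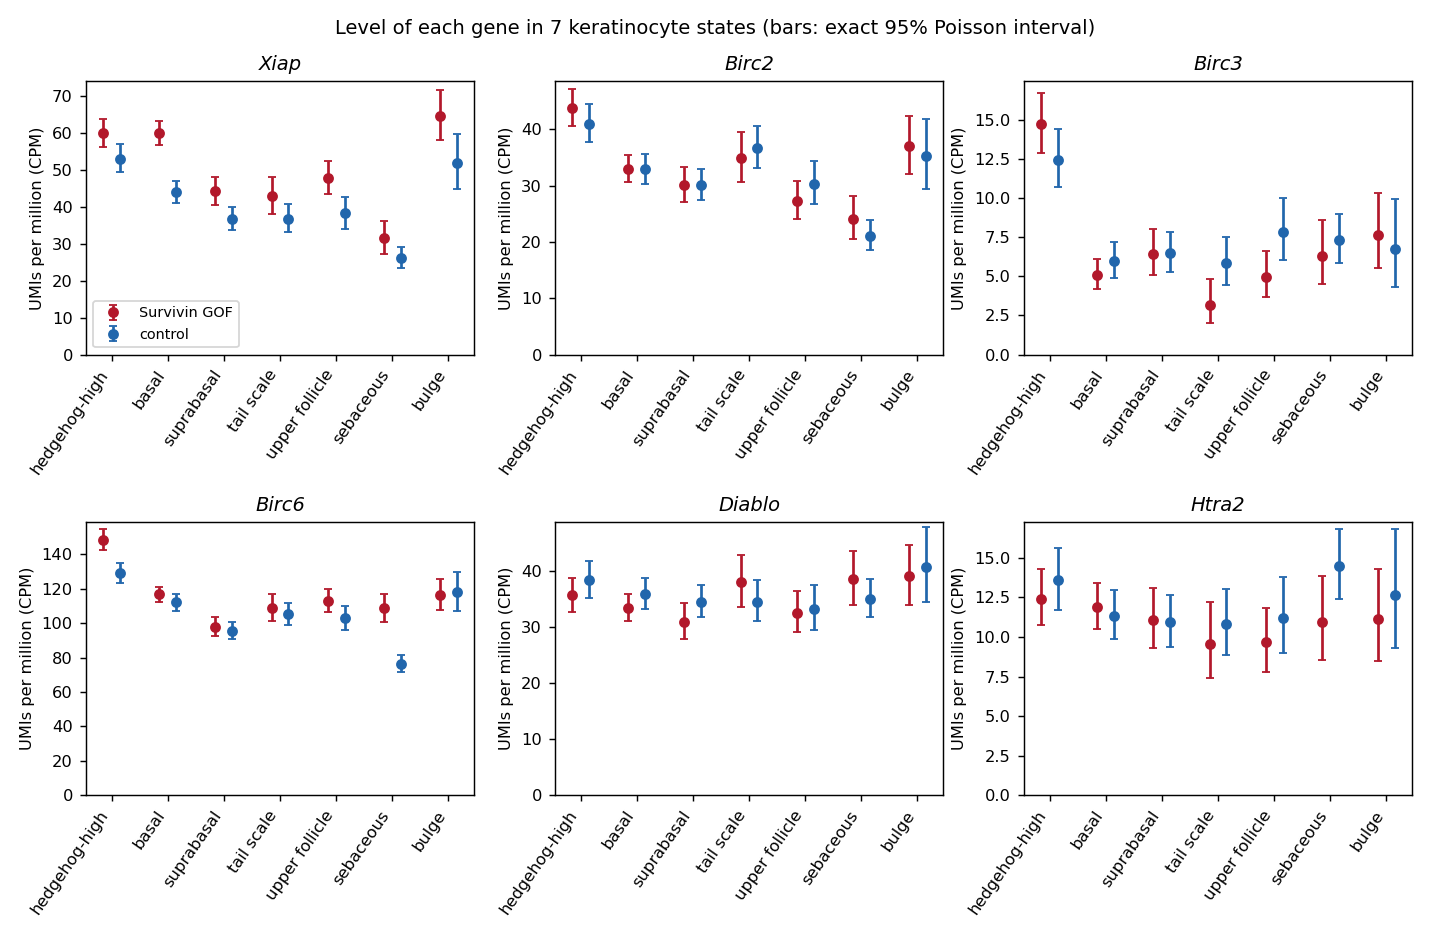
CPM of each gene in 7 keratinocyte states, GOF (red) and control (blue), with exact 95% Poisson intervals. Birc3 stands apart in hedgehog-high cells at 14.7 CPM in GOF and 12.4 CPM in control, and Xiap is lowest in sebaceous cells at 31.5 CPM in GOF and 26.1 CPM in control.

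Birc3 had the widest range. In GOF cells it ran in the order hedgehog-high 14.7, bulge 7.65, suprabasal 6.43, sebaceous 6.33, basal 5.09, upper follicle 4.98 and tail scale 3.19 CPM, and in control cells hedgehog-high 12.4, upper follicle 7.84, sebaceous 7.32, bulge 6.72, suprabasal 6.46, basal 5.99 and tail scale 5.83 CPM. After the first place, neighbours in both orders had overlapping intervals. The highest level was 4.60-fold the lowest in GOF (2.97 to 7.49) and 2.14-fold in control (1.59 to 2.91).

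Hedgehog-high cells against all other keratinocytes of the same library gave Birc3 a ratio of 2.45 (2.09 to 2.86) in GOF, 14.7 against 5.998 CPM, and of 1.79 (1.504 to 2.11) in control, 12.4 against 6.97 CPM. Birc3 was the only gene of the 6 past 1.5-fold in this comparison. Many genes were: 24.7% of those tested were at least 1.5-fold higher and 12.5% lower in GOF hedgehog-high cells, and 23.1% were higher and 10.7% lower in those of the control. In both libraries at once, 19.4% of 14664 genes were past 1.5-fold higher. Birc2 had ratios of 1.38 (1.27 to 1.503) in GOF and 1.32 (1.204 to 1.44) in control, Birc6 of 1.33 (1.27 to 1.39) in GOF and 1.26 (1.203 to 1.33) in control, and Xiap of 1.204 (1.12 to 1.29) in GOF and 1.34 (1.24 to 1.45) in control. Diablo was nearer to 1, at 1.06 (0.97 to 1.16) in GOF and 1.12 (1.02 to 1.22) in control, as was Htra2, at 1.10 (0.94 to 1.29) in GOF and 1.11 (0.95 to 1.30) in control.

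Hedgehog-high cells were then divided by whether Lef1 and Basp1 or Dio2, Nptx1 and Pi15 had more UMIs, a division chosen after values had been seen. In the GOF library Birc3 stood at 19.4 CPM (16.6 to 22.4) in the 451 cells of the Lef1 side and at 8.60 CPM (6.39 to 11.3) in the 319 cells of the Dio2 side. In the control library it stood at 14.7 CPM (11.9 to 18.03) in the 495 cells of the Lef1 side and at 11.1 CPM (8.73 to 13.9) in the 759 cells of the Dio2 side, with overlapping intervals. Birc2 followed the same sides in GOF, with 48.8 CPM on the Lef1 side and 34.1 CPM on the Dio2 side, but not in control, with 37.5 CPM on the Lef1 side and 44.6 CPM on the Dio2 side. Xiap intervals overlapped, with 60.2 CPM on the Lef1 side and 58.3 CPM on the Dio2 side in GOF, and 54.1 and 55.1 CPM on the same sides in control. Depth also moved with the division, with a median of 17857 UMIs on the Lef1 side and 15808 on the Dio2 side in GOF, and 10879 and 7612 on the same sides in control, and its part was not tested.

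Xiap was lowest in sebaceous cells. They had 31.5 CPM in GOF against 52.4 in the other keratinocytes, a ratio of 0.60 (0.52 to 0.69), and 26.1 CPM in control against 43.4, a ratio of 0.60 (0.54 to 0.68). Birc2 in sebaceous cells had ratios of 0.71 (0.60 to 0.83) in GOF and 0.62 (0.55 to 0.71) in control. Birc6 was at 0.92 (0.854 to 0.996) in GOF and 0.70 (0.65 to 0.75) in control. Past 1.5-fold lower were Xiap in both libraries and Birc2 in the control, where 35.1% of all genes in GOF and 32.9% in control were too, with 14.2% in GOF and 9.75% in control past it higher. In the sebaceous state the inhibitor over antagonist quotient was 1.249 (1.08 to 1.45) in GOF and 1.10 (0.98 to 1.23) in control, and in hedgehog-high cells 2.46 (2.26 to 2.68) in GOF and 2.04 (1.87 to 2.23) in control. Tail scale cells went the other way, at 1.70 (1.48 to 1.95) in GOF and 1.745 (1.56 to 1.96) in control, with overlapping intervals. The remaining states were higher in GOF.

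At the other end of the Xiap order, GOF levels were 64.4 CPM in bulge, 59.8 in basal and 59.8 in hedgehog-high cells, which did not differ beyond counting error, followed by upper follicle at 47.8, suprabasal at 44.1 and tail scale at 42.8 CPM. Control levels were 53.0 CPM in hedgehog-high, 51.9 in bulge and 43.9 in basal cells, followed by upper follicle at 38.2, tail scale at 36.8 and suprabasal at 36.7 CPM. Birc6 ran from 148 CPM in hedgehog-high to 97.8 in suprabasal GOF cells, and from 129 in hedgehog-high to 76.3 in sebaceous control cells. The antagonists were flatter. Diablo ran from 31.0 to 39.1 CPM over GOF states and from 33.4 to 40.9 over control states, and Htra2 from 9.58 to 12.4 CPM over GOF states and from 10.8 to 14.5 over control states, with overlapping intervals between all neighbours in each order.

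Profiles of log2(CPM + 1) over 14 sums, 7 states in 2 libraries, were compared as a description, since the sums share libraries and depth. Xiap and Birc6 had a Pearson r of 0.80, Birc2 and Birc6 0.80, and Xiap and Birc2 0.77. Birc3 resembled its neighbour Birc2 less, at 0.39, and had 0.65 with Htra2. Among 5675 other genes, the profiles most like Xiap were those of Mier1 (0.98), Map3k2 (0.97) and Fam76b (0.97). For Birc2 they were Atr (0.95), Rrp1b (0.94) and Nin (0.93), and for Birc6 Rbm25, Fubp1 and Pnn (0.96 each). For Birc3 they were Arhgdib (0.91), Polr2f (0.90) and Litaf (0.89). For Htra2 they were Rbck1 (0.85), Golt1b (0.83) and Dmac1 (0.82), and for Diablo Tmem219 (0.79), Trnau1ap (0.78) and Btbd3 (0.77).

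**Figure D3:**
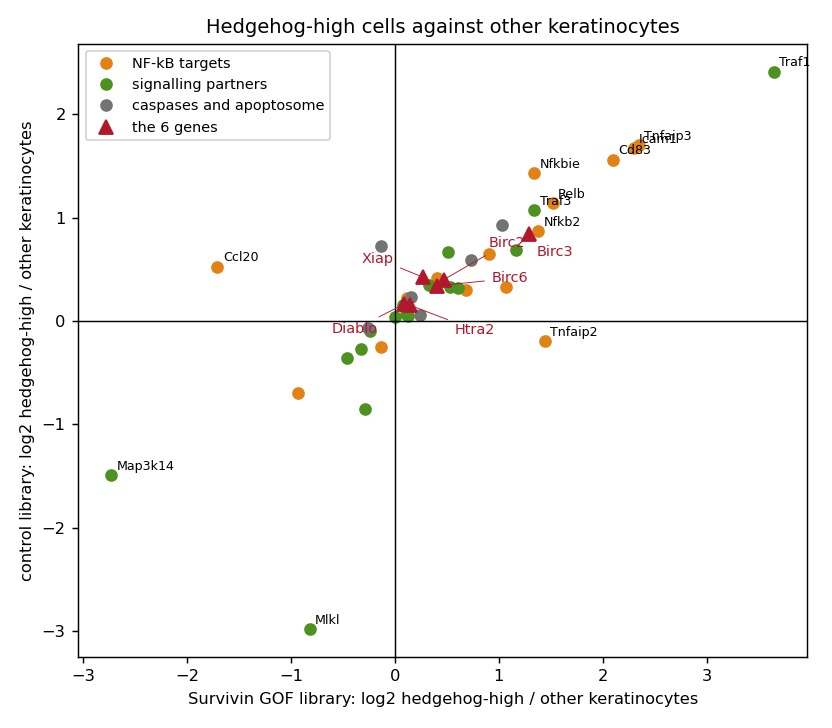
Log2 ratio of hedgehog-high cells to other keratinocytes in the GOF library (horizontal) and the control library (vertical) for the 6 genes (triangles) and 3 pathway lists (circles). Birc3 lies at 1.29 in GOF and 0.84 in control, among NF-kB targets such as Nfkb2 and Relb.

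Birc3 is itself a known NF-kB target, and 7 of 15 measured NF-kB targets were at least 1.5-fold higher in hedgehog-high cells of both libraries, against 19.4% of all genes. They were Nfkbie, Tnfaip3, Nfkb2, Relb, Tnip1, Icam1 and Cd83, and Nfkbiz was past 1.5-fold lower in both. Tnfaip3, which edits ubiquitin chains to end NF-kB signalling, had log2 ratios of 2.35 in GOF and 1.70 in control hedgehog-high cells. Relb, a subunit of the non-canonical arm, had 1.52 in GOF and 1.14 in control. Of the 17 signalling partners, the adaptors Traf1 and Traf3 and the kinase Ripk2 were past 1.5-fold higher in both, and Map3k14 and Mlkl lower. With 8.76% of all genes past 1.5-fold lower in both, 3 of 17 higher and 2 of 17 lower are near the background. Map3k14, the kinase that Birc2 and Birc3 help to remove, had log2 ratios of -2.73 in GOF and -1.49 in control hedgehog-high cells. These are RNA ratios, and removal of the kinase protein was not measured. Of the caspase and apoptosome genes, the executioner caspase gene Casp6 and the scaffold gene Apaf1 were past 1.5-fold higher in both.

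Xiap is X-linked, and the GOF library held cells of both sexes, so the sexes were compared within it. Female-called cells held Xiap at 53.8 CPM, against 46.8 CPM for male-called cells, a ratio of 1.15 (1.08 to 1.22). Kdm6a, an X-linked gene known to escape X inactivation, had a ratio of 1.64 (1.502 to 1.79), and Ddx3x, another, 1.21 (1.17 to 1.26). The 397 X-linked genes tested had a median log2 ratio of 0.03, as had the autosomal genes, and 84 of them had a higher ratio than Xiap, whose log2 ratio was 0.20.

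The sex difference of Xiap did not stand out from that of the autosomal Birc2, at 35.6 CPM for female-called against 28.9 CPM for male-called cells, a ratio of 1.23 (1.14 to 1.33). Diablo had 1.09 (1.005 to 1.17), Birc3 1.10 (0.93 to 1.31), Htra2 1.05 (0.92 to 1.202) and Birc6 1.02 (0.98 to 1.06). No gene of the 6 was past 1.5-fold, against 5.29% of 13325 genes higher and 4.02% lower in female-called cells. With states weighted equally the Xiap ratio was 1.08, higher in female-called cells in 5 of 7 states, and in cells without core mitotic UMIs it was 1.06 (0.95 to 1.19). Birc2 had 1.16 with equal weights and 6 of 7 states, its ratio being largest in sebaceous (1.46, 0.96 to 2.20) and upper follicle cells (1.41, 1.06 to 1.90). How many mice gave the female-called and male-called cells is not known, so sex and mouse cannot be told apart.

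**Figure D4:**
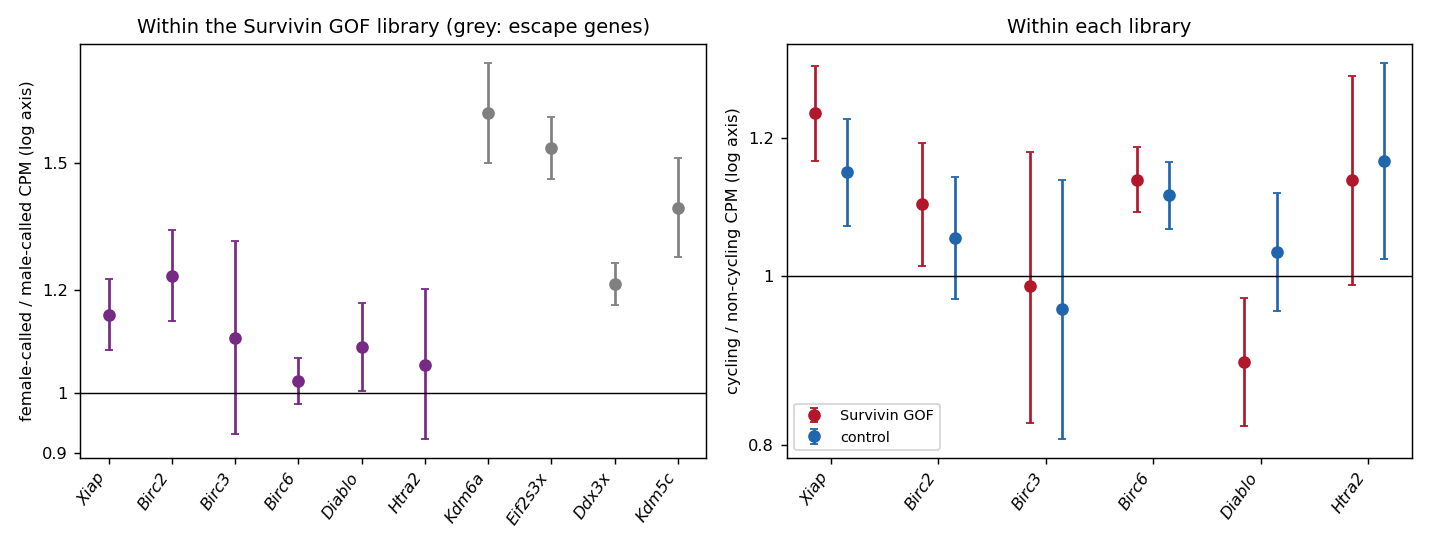
Left, ratio of female-called to male-called cells within the GOF library for the 6 genes (purple) and 4 X-linked escape genes (grey); right, ratio of cycling to non-cycling cells for the 6 genes in the GOF (red) and control (blue) library, on log axes with exact 95% intervals. Xiap at 1.15 lies below all 4 escape genes on the left, with an interval that overlaps that of Ddx3x. On the right, Xiap, Birc2, Birc6 and Htra2 lie above 1 in both libraries, with both intervals above 1 for Xiap and Birc6 only.

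Cycling cells were those with at least 3 UMIs of 12 core mitotic genes after thinning to 3000 UMIs, and they were set against cells with none. There were 1077 cycling and 4543 non-cycling cells in the GOF library, and 2704 cycling and 4794 non-cycling cells in the control library. Xiap was at 60.7 CPM in cycling and 48.9 in non-cycling GOF cells, a ratio of 1.24 (1.17 to 1.32), and at 45.8 CPM in cycling and 39.9 in non-cycling control cells, a ratio of 1.15 (1.07 to 1.23). Birc6 had ratios of 1.14 (1.09 to 1.19) in GOF and 1.11 (1.07 to 1.16) in control. Birc5 gave 19.0 (17.1 to 21.2) in control cells and 1.09 (1.08 to 1.11) in GOF cells, whose non-cycling cells already held 761 CPM.

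The other 4 genes had at most 1 library whose interval left 1. The share of all genes whose interval left 1 between cycling and non-cycling cells was not computed, so these counts have no background. Birc2 had ratios of 1.10 (1.01 to 1.19) in GOF and 1.05 (0.97 to 1.14) in control, and Birc3 of 0.99 (0.82 to 1.18) in GOF and 0.96 (0.81 to 1.14) in control. Diablo was at 0.89 (0.82 to 0.97) in GOF and 1.03 (0.96 to 1.12) in control, and Htra2 at 1.14 (0.99 to 1.30) in GOF and 1.17 (1.02 to 1.33) in control. Called on all UMIs instead, cycling cells gave Xiap 1.06 (0.998 to 1.13) in GOF and 1.04 (0.96 to 1.12) in control, intervals that held 1. The same call gave Birc2 1.01 (0.94 to 1.09) and Diablo 0.996 (0.92 to 1.08) in GOF, so those intervals held 1 too. Cycling GOF cells had a median of 17830 UMIs against 11637 in non-cycling ones, and the part of depth was not tested.

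The wider pathway was read from 5 gene lists, beside the background of 6.51% higher and 5.5% lower over all keratinocytes. Of the other inhibitor of apoptosis genes only Birc5 was measured, while Birc7, Naip1, Naip2, Naip5 and Naip6 had 0 to 5 UMIs in each library. Of 7 other antagonists and regulators, Xaf1 was past 1.5-fold, with a list median log2 ratio of 0.03. Xaf1, an interferon-induced gene whose product binds Xiap, stood at 6.596 CPM in GOF and 2.18 CPM in control keratinocytes, a ratio of 3.03 (2.60 to 3.53). In male-called cells it stood at 2.11 CPM in GOF and 2.10 CPM in control, a ratio of 1.002 (0.74 to 1.34). Within the GOF library it was 9.24 CPM for female-called against 2.11 CPM for male-called cells, 4.38-fold (3.38 to 5.77), so the excess lay in female-called cells, for which sex and mouse cannot be told apart. Gspt1, a translation release factor with a form that binds these inhibitors, had a ratio of 1.27 (1.24 to 1.30).

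None of the 7 caspase and apoptosome genes was past 1.5-fold, and their median log2 ratio was 0.07. Apaf1, the scaffold of the apoptosome, had a ratio of 1.10 (0.99 to 1.23). Of 17 signalling partners 1 was higher and 1 lower, with a median of 0.09. Mlkl, the effector of necroptosis, stood at 2.64 CPM in GOF and 1.44 CPM in control, a ratio of 1.83 (1.495 to 2.25), and 1.66 (1.22 to 2.23) in male-called cells. Traf1, with 25 UMIs in GOF and 52 in control, had a ratio of 0.46 (0.27 to 0.75), and its log2 ratio was -0.09 with states weighted equally.

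Of 15 measured NF-kB targets 1 was higher and 3 lower, with a median log2 ratio of 0.01. Nfkbie, an inhibitor of NF-kB, stood at 3.80 CPM in GOF and 1.92 CPM in control, a ratio of 1.98 (1.67 to 2.36). Nfkbiz, a nuclear co-regulator, stood at 16.5 CPM in GOF and 29.5 CPM in control, a ratio of 0.56 (0.53 to 0.59). The chemokine gene Ccl20 had 0.55 (0.39 to 0.76) and the surface protein gene Cd83 0.54 (0.42 to 0.69). In male-called cells Nfkbie had 2.43 (1.93 to 3.04), Nfkbiz 0.60 (0.55 to 0.66), Ccl20 0.30 (0.15 to 0.57) and Cd83 0.52 (0.33 to 0.78).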

How the data were processed

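The deposited matrices hold whole-number UMI counts per gene and barcode, made by the authors with Cell Ranger 6.1.1 on mm10; R 4.3.0 and Seurat 4.2.0 also stand in the submitters' processing notes. Chips of V2 and a library kit of V3 chemistry are named in the labels' protocols. The counts were read with Python 3.11.15, numpy 2.4.6, scipy 1.17.1 and pandas 2.3.3, and plotted with matplotlib 3.10.9.

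Cells were kept at 1500 or more genes and 10% or fewer mitochondrial UMIs. Counts per cell were scaled to 10000, logged and standardised, and each cell took the state of its highest mean marker score, if at least 0.5 with 3 or more markers detected. No doublet caller was run; an alternative left out the top 6% of cells by UMIs in each library.

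UMIs were summed per state and library and scaled to UMIs per 1000000 (CPM). Intervals are exact Poisson for levels and exact conditional (Clopper-Pearson) for ratios. Those for ratios were tested on simulated Poisson counts, which follow the model that the intervals assume. The simulation held no variation between cells or mice, so it does not check the intervals on these data. Called means past 1.5-fold with at least 50 pooled UMIs. Male-called cells had a UMI of 4 Y-linked genes and none of Xist, and female-called cells the reverse.

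Named were the 6 genes, every listed pathway gene past 1.5-fold (otherwise the 2 largest ratios of a list), and the 3 most similar profiles per gene among genes averaging at least 20 CPM. Other pathway genes named in the hedgehog-high comparison were chosen after their values were seen. A gene that this rule selected is not reported here. The genes and lists were chosen with earlier results of these data known. The score limit, the cycling limit and the hedgehog-high division were also set after values had been seen.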

Additional observations from a re-analysis of the deposited data

Results flagged for a closer look

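Barcodes outside the cell filter enter no comparison above, and 3 of the 6 genes were higher there in the GOF than in the control library beyond both counting intervals. The share of all genes that differed in this way was not computed, so the count cannot be set against a background. Birc6 stood at 225 CPM (217 to 233) in GOF and 146 CPM (143 to 150) in control barcodes. Xiap stood at 69.9 CPM (65.4 to 74.6) in GOF and 59.0 CPM (56.6 to 61.5) in control. Birc2 stood at 70.1 CPM (65.7 to 74.8) in GOF and 54.0 CPM (51.7 to 56.5) in control. The barcodes with under 1500 genes, 3145 in GOF and 11003 in control, had Birc6 at 216 CPM in GOF and 143 CPM in control, with a median mitochondrial share of 19% in GOF and 12.7% in control. Those with enough genes but over 10% mitochondrial UMIs, 1371 in GOF and 2848 in control, had it at 233 CPM in GOF and 151 CPM in control, with a mitochondrial median of 15.7% in GOF and 13.9% in control. The part of RNA quality in these differences was not tested. All these values exceed those of kept keratinocytes, at 117 CPM in GOF and 106 CPM in control for Birc6.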

How the results depend on the processing

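No paired analysis was possible because each genotype has 1 library, and for the same reason no replicate could be left out. Of 165 alternative values for 47 results, 129 stayed within the counting interval or tolerance, 35 moved past it and 1 reversed: Htra2 over all keratinocytes gave 1.10 after thinning. A ratio could count as reversed only if its main interval left out 1, and a list median only if past 0.1 in log2. Other changes of side, such as Birc2 at 0.90 in male-called cells, count as moved or as within. Median-of-ratios scaling, a log2 shift of 0.07, moved Xiap to 1.18, Birc2 to 0.98, Birc6 to 1.05 and Diablo to 0.92. Male-called cells moved Xiap to 1.12, Birc2 to 0.90 and Diablo to 0.92. Male-called cells with equal state weights, an alternative added after seeing the data, gave Xiap 1.16, Birc2 0.92, Birc3 0.72 and Birc6 1.06. A limit of 5% mitochondrial UMIs gave Birc2 1.08, and cells without core mitotic UMIs gave Birc6 1.05. Without a filter on genes, 17.1% were past 1.5-fold higher and 14.8% lower, against 6.51% and 5.5% with it. Sebaceous Xiap in GOF was 0.48 of other cells after thinning. The female over male ratio of Xiap was 1.06 in cells without core mitotic UMIs and 1.08 with equal state weights. Cycling called on all UMIs gave Xiap 1.06 in GOF and 1.04 in control, and in GOF Birc2 1.01 and Diablo 0.996. Tail scale Birc3 was 0.31 at a score limit of 0.75, and upper follicle Birc3 0.70 at 0.25 and 0.68 without the top 6% of UMIs. The median log2 ratio of NF-kB targets was 0.11 in male-called cells and -0.12 with equal state weights. Apart from construction (fewer cells, another scale), causes were not tested. Xiap stayed above 1 over all keratinocytes in all 9 alternatives tried.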

Other observations

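Immune-like cells had Birc3 near the hedgehog-high level. These cells, led by H2-Aa and Cd207, held it at 14.0 CPM (8.78 to 21.2) in 63 GOF cells and 12.5 CPM (6.63 to 21.3) in 106 control cells. Melanocyte-like cells held it at 4.69 CPM (2.62 to 7.73) in 167 GOF cells and 6.61 CPM (4.35 to 9.61) in 314 control cells. Birc6 in melanocyte-like cells was 133 CPM in GOF and 108 CPM in control, and Xiap 54.4 CPM in GOF and 37.4 CPM in control.

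Birc5 RNA varied among GOF cells, so those without core mitotic UMIs were divided by Birc5 UMIs after thinning to 3000. Xiap stood at 51.5 CPM (44.2 to 59.7) in 1139 cells with 0, 57.0 CPM (47.5 to 67.7) in 755 cells with 1 to 2 and 44.2 CPM (36.6 to 53.0) in 882 cells with 3 or more Birc5 UMIs. Birc6 stood at 110, 106 and 119 CPM in the same order. Intervals overlapped between all 3 bins for each of the 6 genes.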
